A study of Mus musculus with 185 samples.

Results

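The glutathione S-transferases join the tripeptide glutathione to electrophilic compounds, which include drugs, toxins and the aldehydes left by lipid oxidation. The 10 genes described here are 10 of the 17171 genes in the deposited table, and all 10 were found in it by symbol. They are Gstm1, Gstm2, Gstm4 and Gstm5 of the mu class, Gstp1 of the pi class, Gstt1 of the theta class, Gsta4 of the alpha class, Gsto1 of the omega class, and the microsomal enzymes Mgst1 and Mgst3. The group was chosen with measured values in view, because Gstm1 was much lower in Postn-traced than in Postn-negative infarct cells. That comparison is therefore given as a description and supports nothing.

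The soluble transferases work in the cytosol, while the microsomal enzymes sit in membranes and form a separate protein family. Many of the genes are targets of the transcription factor Nrf2, the product of Nfe2l2, which binds antioxidant response elements. In the heart the enzymes are known for handling oxidized lipids, which accumulate after ischaemia.

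The mRNA of single non-myocyte cells of the mouse heart was sequenced after capture on a Fluidigm C1 chip, which holds each cell in its own site. The values are log2 (TPM+1), where TPM is a transcript abundance corrected for gene length and brought to a common total in every cell. All mice were C57BL/6 (backcross N=6) and about 5 months old. The 185 cells fell into 9 classes from 4 captures, named Jul24, Jul29, Nov4 and Nov11 in the cell names.

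The cells had been sorted to be CD31- and CD45-, and eGFP was read on the chip by microscopy. In Postn MCM/+; R26-eGFP mice, tamoxifen lets the MerCreMer protein made from the Postn locus switch on eGFP for good, so that cells that had used the gene are traced. Tcf21 MCM/+; R26-eGFP mice trace cells that had used Tcf21, a gene of resident fibroblasts, in the same way. Both knock-in alleles were heterozygous, and recombination is incomplete, so that a cell without eGFP may still carry Postn mRNA. The injury was a myocardial infarction (MI) made by tying off the left coronary artery.

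Capture Jul29 held 27 Postn-traced and 24 Postn-negative cells from the infarct of Postn MCM/+; R26-eGFP mice at 7 days after MI. Capture Nov4 held 44 Tcf21-traced cells from the infarct of Tcf21 MCM/+; R26-eGFP mice, also at 7 days. Untraced cells with Postn mRNA came from 3 captures, with 6 cells in Jul29, 19 in Nov4 and 3 in Nov11, and no day is stated for them. The traced cells were Postn-traced in Jul29 and Tcf21-traced in Nov4. Untraced may therefore refer to a different gene in each capture. Capture Nov11 also held 29 untraced scar cells, for which neither the mouse line nor the day is stated. Capture Jul24 held the 33 resident cells, of which 17 were Tcf21-traced cells of Tcf21 MCM/+; R26-eGFP mice, labelled as uninjured. The other resident cells were 12 Postn-negative cells, 3 Tcf21-positive cells with Postn and 1 further cell with Postn. The sources differ on the hearts of all resident cells, which are called uninjured or sham in places, with uninjured regions also named for the Tcf21 cells and the remote region for the Postn-negative cells. The mouse line of the latter is not settled.

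Because the mouse behind a cell is not named, a class can only stand as 1 sample. Tests were therefore left out, and SDs between cells are a description only. Resident and infarct cells were never captured together, so that capture and injury cannot be told apart. The paper gives an average read depth but not that of each cell. The number of genes above 5 TPM stands in for it. Its median was 2770 over all cells, 2264 in resident Tcf21-traced cells, 2342 in infarct Postn-negative cells, 3643 in Postn-traced cells and 3134 in infarct Tcf21-traced cells. Scar cells had a median of 3177 and a range from 141 to 4394, and 5 of them held fewer than 300 genes.

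The labels do not call any cell a fibroblast, so cell types were checked against marker lists. Detection here means a value above 5 TPM. At least 3 of 7 fibroblast genes were detected in 183 of 185 cells, and Dcn, which encodes decorin, was the most abundant of them. The 183 cells included 24 of 24 infarct Postn-negative cells. The paper found essentially no myofibroblast signature in that class and likens it to non-fibroblast mesenchymal cells. At least 3 endothelial genes were detected in 0 cells, and Kdr and Emcn were at 0 in all resident cells. Tek was the most abundant gene of that list, with a mean of 36.4 TPM in resident and 19.9 TPM in infarct cells. The myeloid list reached 3 genes in 1 cell, a resident Postn-negative one that held 4 myeloid genes and 1 fibroblast gene, and the lists for cardiomyocytes, epicardium and Schwann cells in 1 cell each. Pericyte genes reached 3 in 2 cells. Smooth muscle genes, which include the myofibroblast genes Acta2 and Tagln, reached 3 in 25 cells, all from the infarct. Their mean summed level was 931 TPM in untraced Postn-positive cells, 749 TPM in Postn-traced cells, 475 TPM in infarct Tcf21-traced cells, 239.6 TPM in scar cells, 87.2 TPM in infarct Postn-negative cells and 103 TPM in resident Tcf21-traced cells, with Tagln most abundant in the first 4 of these classes and Smtn in the last 2. Untraced Postn-positive cells differed by capture, with 77.2 TPM in Jul29 and 1206 TPM in Nov4. Their part in the differences below was not tested.

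Gstm1 encodes a mu class enzyme of the cytosol and lies on chromosome 3 in a cluster of mu class genes. In the GRCm38.p6 RefSeq annotation the order along the chromosome is Gstm5, Gstm7, Gstm6, Gstm3, Gstm2, Gstm1 and Gstm4. Of the members, Gstm2, Gstm1 and Gstm4 thus follow each other, and Gstm5 lies at the opposite end. The 250 bases before the start of Gstm1, Gstm2, Gstm5 and Mgst1 are shown because these genes differed in pattern although 3 of them are clustered. Each is written 5′ to 3′ on the strand of its gene, and capitals mark TGAC, any 3 bases and GC, the core letters of an antioxidant response element, looked for on both strands. The windows, at the first listed start of each gene, are chr3:108017974-108018223 (minus strand) for Gstm1, chr3:107986421-107986670 (minus strand) for Gstm2, chr3:107895604-107895853 (plus strand) for Gstm5 and chr6:138140277-138140526 (plus strand) for Mgst1.
Gstm1: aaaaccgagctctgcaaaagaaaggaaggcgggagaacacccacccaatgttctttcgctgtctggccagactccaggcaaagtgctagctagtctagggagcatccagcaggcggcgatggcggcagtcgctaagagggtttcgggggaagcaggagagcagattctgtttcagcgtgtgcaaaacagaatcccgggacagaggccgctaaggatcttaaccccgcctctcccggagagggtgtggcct
Gstm2: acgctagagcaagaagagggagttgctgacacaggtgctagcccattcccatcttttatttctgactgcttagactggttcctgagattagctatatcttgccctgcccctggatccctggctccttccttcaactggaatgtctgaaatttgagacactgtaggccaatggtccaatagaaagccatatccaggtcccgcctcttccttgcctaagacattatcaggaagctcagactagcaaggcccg
Gstm5: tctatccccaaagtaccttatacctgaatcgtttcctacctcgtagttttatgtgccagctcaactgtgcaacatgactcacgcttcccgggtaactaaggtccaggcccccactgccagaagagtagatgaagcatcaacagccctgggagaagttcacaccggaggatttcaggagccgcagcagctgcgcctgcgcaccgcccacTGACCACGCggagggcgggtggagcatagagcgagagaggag
Mgst1: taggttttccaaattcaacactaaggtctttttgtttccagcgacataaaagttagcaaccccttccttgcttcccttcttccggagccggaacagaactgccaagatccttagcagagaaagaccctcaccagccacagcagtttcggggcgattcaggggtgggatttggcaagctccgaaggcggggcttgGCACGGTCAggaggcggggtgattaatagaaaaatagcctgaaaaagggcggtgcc
The letters occurred in 2 of the 12 windows of the members, in Gstm5 at 42 bases before the start and in Mgst1 at 56 bases on the opposite strand. Of all 32851 windows of this length, 3338 or 10.2% held them. A window was given for 9 members, Gsta4 being the exception. Gstm1, Gstm4 and Mgst1 have 2 starts, and the second window of Mgst1, like both of Gstm1, did not hold the letters. A match describes the letters only.

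Near-identical copies limit how far some members can be told apart. Of the 100-base stretches of the Gstp1 transcript, 52.8% also occur in the transcript of Gstp2, its neighbour on chromosome 19, so that the level of Gstp1 is uncertain against Gstp2. For Gstm1 the share was 7.73% over 3 other genes, the most with the pseudogene Gstm2-ps1 at 3.45%. Gstm2 shared 0.622% of its stretches, and the other 7 members shared none.

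Gstm1 was present at a high level in nearly every resident cell. In resident Tcf21-traced cells the lowest, median and highest log2 (TPM+1) were 10.17, 11.91 and 12.55, with a mean of 11.64 ± 0.71 (SD between 17 cells). Resident Postn-negative cells had 2.08, 11.44 and 13.01, with a mean of 10.72 ± 2.88 over 12 cells. The cell at 2.08 was the one with myeloid markers, and the other 11 ran from 9.89 upwards, with a mean of 11.51 ± 0.99. Comparisons of members, lists and all genes with this class were therefore repeated without cells of fewer than 3 fibroblast genes, an alternative chosen after seeing the data. The 3 resident Tcf21-positive cells with Postn had 10.11, 11.32 and 11.84, and the further resident cell with Postn had 9.08.

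Among infarct cells, the Postn-negative class was as high as the resident classes. Its lowest, median and highest Gstm1 values were 9.18, 11.42 and 12.90, with a mean of 11.35 ± 1.08 over 24 cells. Postn-traced cells of the same capture had 0.00, 5.45 and 12, with a mean of 5.23 ± 3.70 over 27 cells. Those classes overlapped in part, because 5 of 27 Postn-traced cells reached the lowest Postn-negative cell.

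Infarct Tcf21-traced cells were spread over nearly the whole range of Gstm1. Their lowest, median and highest values were 0.00, 7.08 and 12.30, with a mean of 6.43 ± 4.22 over 44 cells. Of these cells, 15 of 44 reached the lowest Postn-negative cell, against 17 of 17 resident Tcf21-traced cells. Untraced Postn-positive cells had 0.00, 6.36 and 13, with a mean of 5.74 ± 4.24 over 28 cells. By capture the mean of this class was 8.04 ± 4.38 in the 6 cells of Jul29, 5.10 ± 4.22 in the 19 cells of Nov4 and 5.22 ± 3.71 in the 3 cells of Nov11. The 6 cells of Jul29 were at 1.97, 3.91, 7.85, 9.58, 12.03 and 12.91, so that they spanned both of the other classes of their capture. Untraced scar cells were the lowest class in mean log2 (TPM+1), with 0.00, 1.90 and 12.93 and a mean of 4.47 ± 4.77 over 29 cells. Among cells with Gstm1 above 5 TPM, however, their mean was 8.92, and Postn-traced cells were lower at 7.18.

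The 7 classes with at least 12 cells were put in order by mean log2 (TPM+1) over all their cells. The order was resident Tcf21-traced, infarct Postn-negative, resident Postn-negative, infarct Tcf21-traced, untraced Postn-positive, Postn-traced and scar. Without the cell of myeloid markers resident Postn-negative cells, at 11.51, stood above infarct Postn-negative cells, at 11.35. In the order over all cells, only the step from resident Postn-negative to infarct Tcf21-traced cells, of 4.29 log2 units, was larger than the larger SD of its pair, 4.22. The 3 upper classes did not differ from their neighbours beyond the spread between cells, nor did the 4 lower ones. Detection followed a similar split. Gstm1 was detected in 17 of 17 resident Tcf21-traced cells (exact 95% Clopper-Pearson interval from 80.5%, covering counting error only, as do all intervals here) and in 24 of 24 infarct Postn-negative cells (from 85.8%). It was detected in 33 of 44 infarct Tcf21-traced cells (75%, 59.7% to 86.8%), 19 of 27 Postn-traced cells (70.4%, 49.8% to 86.2%) and 14 of 29 scar cells (48.3%, 29.4% to 67.5%).

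**Figure D1:**
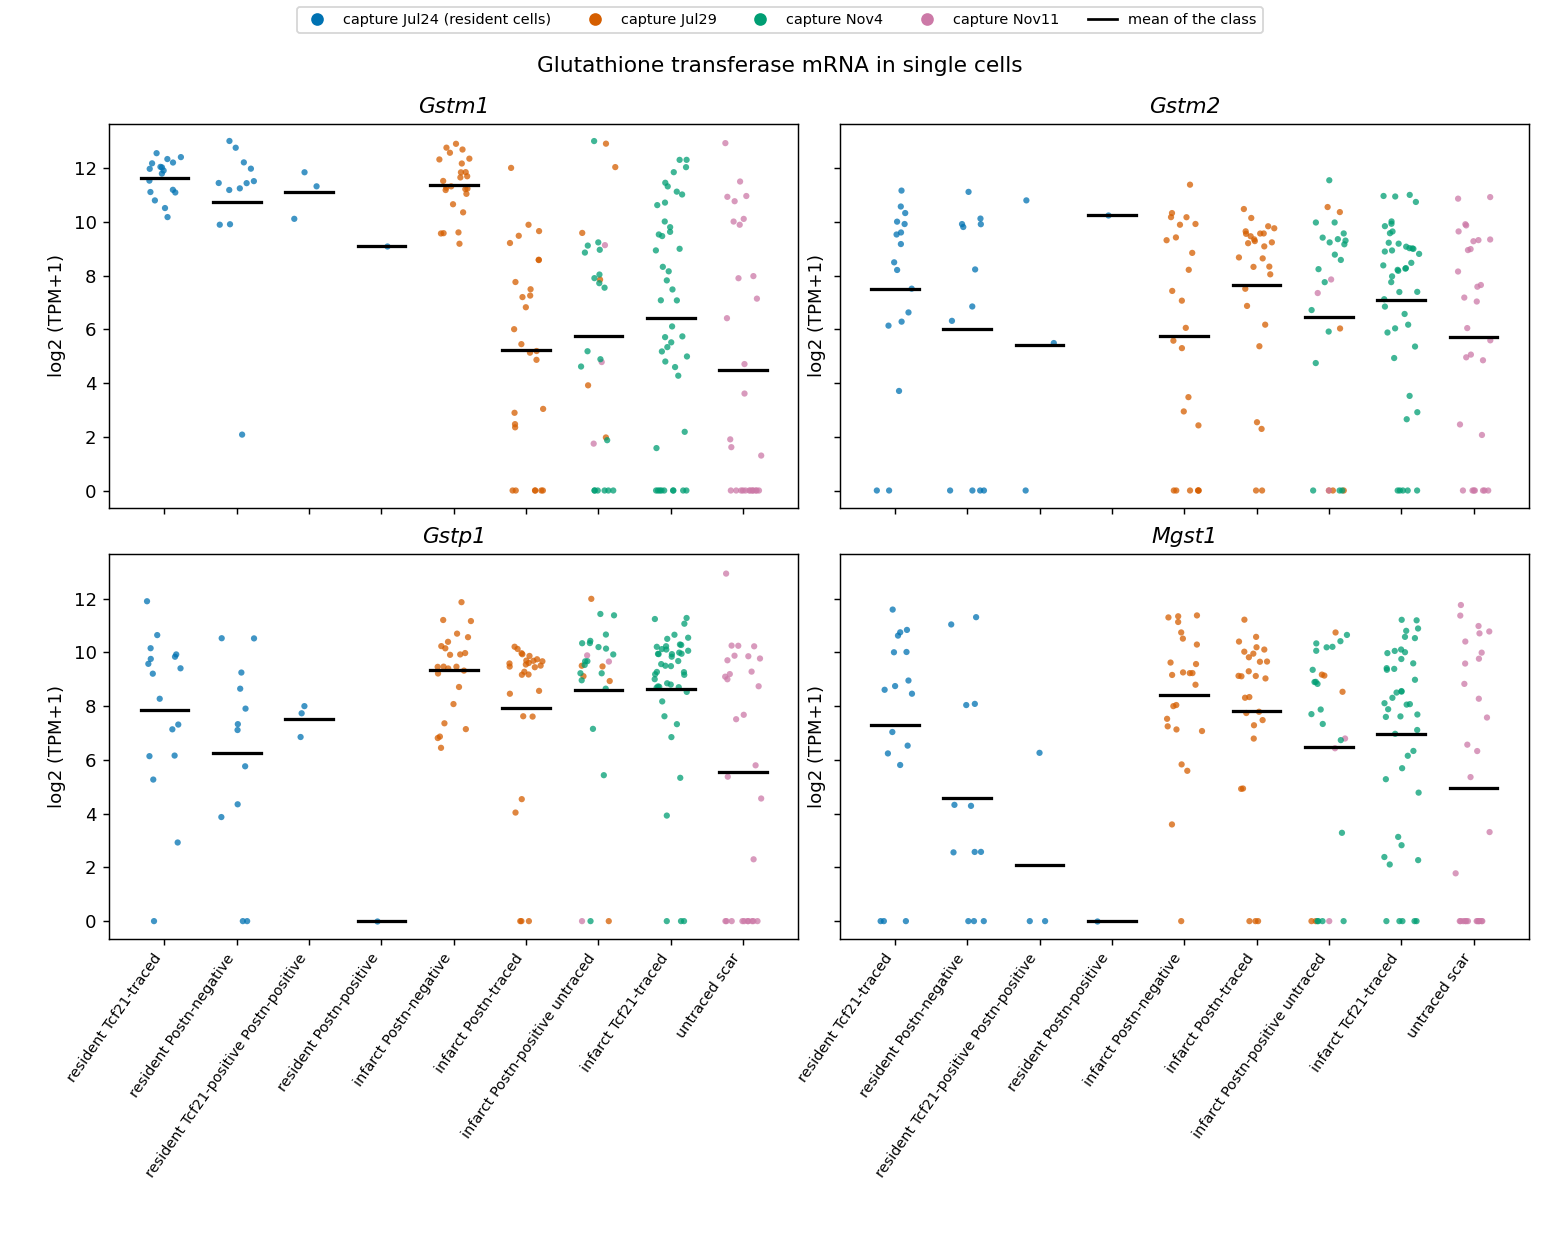
Log2 (TPM+1) of Gstm1, Gstm2, Gstp1 and Mgst1 in each of the 185 cells, by class, with points coloured by capture and lines at class means. Gstm1 is at or above 9.18 in all 24 infarct Postn-negative cells and spread from 0.00 upwards in the traced infarct classes.

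Between Postn-traced and Postn-negative cells, the pair on which the group was chosen, the difference in Gstm1 was -6.12 log2 units and exceeded the larger SD of 3.70. It was the lowest of the 5079 genes above 5 TPM in at least 20% of these cells, which is what the choice rested on. Averaging TPM before taking logs gave -3.31. Of the 7 members that passed this filter, 2 were more than 1 log2 unit higher, against 40.4% of all genes, and 2 were more than 1 log2 unit lower, against 5.47%. The members higher were Gstm2 and Mgst3 and those lower were Gstm1 and Gstp1. Mgst3 passed the filter through the Postn-traced cells, being above 5 TPM in 33.3% of them and in 8.33% of Postn-negative cells.

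Tcf21-traced cells allow a comparison that the choice of the group did not use. Between infarct and resident Tcf21-traced cells the difference in Gstm1 was -5.20, with the larger SD at 4.22, and it was again the lowest of 5056 genes. On the linear scale it was -2.04. Here 7 members passed the filter, with 1 more than 1 log2 unit higher (44.7% of all genes were) and 2 more than 1 log2 unit lower (5.62%). Gstm5 was the higher one, and Gstm1 and Gstt1 were the lower ones. The median difference of all genes was 0.86, so that most genes had higher values in the infarct class, which also held more genes per cell.

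Infarct and resident Postn-negative cells were close in Gstm1, with a difference of 0.63 that lay within the SD. With medians over cells this small difference was -0.02, and without the cell of myeloid markers it was -0.15. Among the 6 members that passed, 2 were higher, Gstp1 and Mgst1, against 30.1% of all genes, and 1 was lower, Gstt1, against 11.4%. The classes of this comparison and of the last differ in capture as well as in injury.

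Within a capture, resident Tcf21-traced cells exceeded resident Postn-negative cells in Gstm1 by 0.92, again within the SD, and by 0.13 without the cell of myeloid markers. Of 6 members that passed, 3 were higher, against 24.3% of all genes, and 1 was lower, against 15.6%. Gstm2, Gstp1 and Mgst1 were the higher members and Gstm5 the lower. Without the cell of myeloid markers 2 were higher, Gstp1 and Mgst1, since Gstm2 was at 0.92 and Gstp1 at 1.02, and Gstm5 was still lower. Untraced Postn-positive cells of Nov4 differed from the Tcf21-traced cells of that capture by -1.33 in Gstm1, within the SD of 4.22. Under other ways of processing this difference ranged from -1.89 to -0.52, so that it was not always beyond 1 log2 unit. Of 7 members that passed there, 0 were higher, against 10.6% of all genes, and 2 were lower, Gstm1 and Gstm5, against 8.2%.

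The remaining comparisons share classes with those above and so add no separate sample. Postn-traced cells differed from resident Tcf21-traced cells in Gstm1 by -6.40, with the larger SD at 3.70, the lowest of 5337 genes and -3.40 on the linear scale. Of 7 members that passed, 1 was higher, Gstm5, against 47.6% of all genes, and 2 were lower, Gstm1 and Gstt1, against 5.3%. Infarct Tcf21-traced cells exceeded Postn-traced cells by 1.20 in Gstm1, within the SD. Gstm1 was the only one of 8 passing members that was higher there, against 8.33% of all genes, and 0 were lower, against 13.4%.

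Scar cells differed from infarct Tcf21-traced cells in Gstm1 by -1.96, within the SD of 4.77. With 6 scar cells of few genes left out, each below 50% of the median of Nov11, it was -1.26. Between medians over cells it was -5.17, averaging TPM before taking logs gave -0.30, and among cells with Gstm1 above 5 TPM it was 0.45, so that its size and sign hung on how cells without Gstm1 were counted. Of 7 members that passed, 0 were higher, against 2.1% of all genes, and 5 were lower, against 36.7%. The lower members were Gstm1, Gstm2, Gstm5, Gstp1 and Mgst1, and all genes had a median difference of -0.71. Without the cells of few genes, 3 of 7 members were lower, Gstm1, Gstm5 and Gstp1, against 16.4% of all genes, and 0 were higher, against 8.76%. With values centred on the median gene of each cell, the genes lower among all went from 1939 to 3925.

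**Figure D2:**
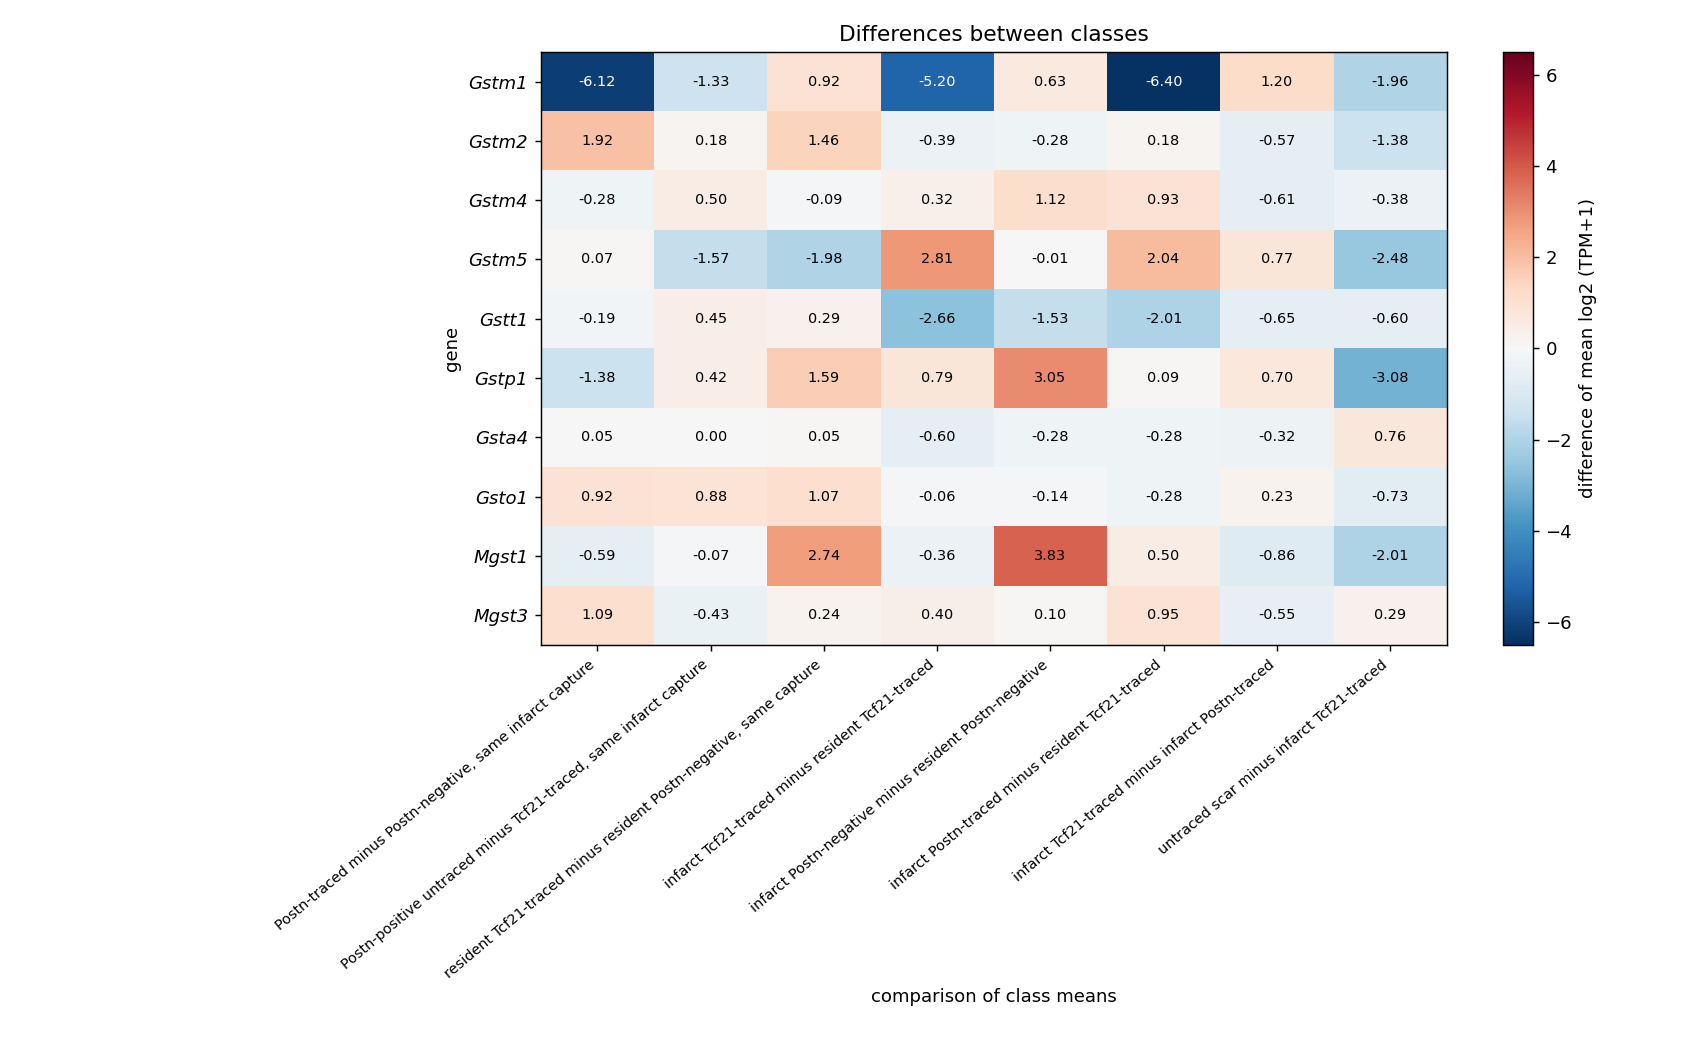
Differences of mean log2 (TPM+1) for the 10 genes, in rows, in the 8 comparisons of classes, in columns, with blue for lower and red for higher in the class named at the start of each comparison. Gstm1 is at -6.12, -5.20 and -6.40 in the comparisons of traced infarct cells with Postn-negative or resident Tcf21-traced cells.

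As the map of differences shows, no other member exceeded the spread between cells in any comparison. Gstm2, the neighbour of Gstm1 and also a mu class enzyme, did not share its pattern. Its lowest, median and highest values were 0.00, 9.08 and 10.47 in Postn-traced cells, with a mean of 7.66 ± 3.02. In infarct Postn-negative cells they were 0.00, 6.56 and 11.38, with a mean of 5.75 ± 4.15, and the difference was 1.92. In the Tcf21-traced cells the means were 7.09 ± 3.24 in the infarct and 7.48 ± 3.42 in resident cells, a difference of -0.39. Resident Tcf21-traced cells exceeded resident Postn-negative cells, at 6.02 ± 4.65, by 1.46, but by 0.92 without the cell of myeloid markers, and among cells with Gstm2 above 5 TPM the difference was -0.55. The lowest class was scar, at 5.71 ± 3.94, and its difference of -1.38 from infarct Tcf21-traced cells became 0.11 without the cells of few genes. No neighbours in the order of the 7 classes differed beyond their spread.

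Gstm5, at the other end of the mu class cluster, was higher in infarct than in resident Tcf21-traced cells. The lowest, median and highest values were 0.00, 4.95 and 11.04 in the infarct class, with a mean of 4.64 ± 3.71, and 0.00, 0.00 and 9.65 in the resident class, with a mean of 1.83 ± 3.15. The difference was 2.81, within the larger SD of 3.71, and Gstm5 was detected in 30 of 44 and 5 of 17 of these cells. Infarct and resident Postn-negative cells did not share it, with a difference of -0.0076. Postn-traced and Postn-negative infarct cells had nearly equal means, 3.87 ± 3.45 and 3.80 ± 3.77. Against resident Tcf21-traced cells the Postn-traced class differed by 2.04. Scar cells, at 2.16 ± 3.14, were the class nearest to the resident Tcf21-traced cells and differed from infarct Tcf21-traced cells by -2.48. Untraced Postn-positive cells of Nov4 differed from these by -1.57, and by 0.49 among cells with Gstm5 above 5 TPM. Resident Postn-negative cells reached the highest value, 12.90, and exceeded the resident Tcf21-traced cells, a difference of -1.98 for the latter.

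Gstm4, the last mu class member, was detected in 19 of 185 cells and passed the filter in no comparison. In the 7 larger classes its means lay between 0.14 in scar cells and 1.41 in infarct Postn-negative cells, and its highest value was 9.93. The single resident cell with Postn had 9.42. Its differences ran from -0.61 to 1.12.

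Gstp1 is the pi class enzyme, and its level includes whatever reads of Gstp2 were assigned to it. In infarct Postn-negative cells the lowest, median and highest values were 6.45, 9.47 and 11.87, with a mean of 9.33 ± 1.5, and it was detected in 24 of 24 cells. In Postn-traced cells they were 0.00, 9.47 and 10.21, with a mean of 7.95 ± 3.23. The medians were thus alike, and the difference of -1.38 between means was 0.0034 between medians. The class means were 8.65 ± 2.75 in infarct Tcf21-traced cells, 8.60 ± 3.28 in untraced Postn-positive cells and 7.86 ± 3.04 in resident Tcf21-traced cells. They were lower in resident Postn-negative cells, at 6.27 ± 3.61, and in scar cells, at 5.57 ± 4.56. Resident Tcf21-traced cells exceeded resident Postn-negative cells in Gstp1 by 1.59, or 1.02 without the cell of myeloid markers. Infarct Postn-negative cells exceeded resident ones by 3.05, and scar cells differed from infarct Tcf21-traced cells by -3.08, or -1.63 without the cells of few genes. Each of these differences lay within the larger SD of its pair.

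Gstt1 encodes a theta class enzyme that acts on small halogenated compounds. It was the only member more than 1 log2 unit lower in infarct than in resident cells in both the Tcf21-traced and the Postn-negative pair. Resident Tcf21-traced cells had a lowest, median and highest value of 0.00, 6.99 and 11.72 and a mean of 5.54 ± 4.33. Infarct Tcf21-traced cells had 0.00, 0.00 and 10.18 and a mean of 2.88 ± 3.51, a difference of -2.66. Between infarct and resident Postn-negative cells, at 3.72 ± 3.47 and 5.25 ± 4.38, the difference was -1.53. Postn-traced cells, at 3.53 ± 4.04, differed from resident Tcf21-traced cells by -2.01. Detection was 11 of 17 in resident Tcf21-traced, 18 of 44 in infarct Tcf21-traced and 9 of 29 in scar cells. All resident cells came from 1 capture, so that the capture cannot be told apart from the injury.

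Gsta4 and Gsto1 were rarely detected. Gsta4, an alpha class enzyme that conjugates aldehydes of lipid oxidation, was detected in 0 of 44 infarct Tcf21-traced cells, which allows a share of up to 8.04%, and in 0 of 28 untraced Postn-positive cells, which allows up to 12.3%. It was found in 3 of 29 scar cells and in 1 cell of each of the other large classes, and passed the filter in no comparison. Gsto1, an omega class enzyme that reduces dehydroascorbate, had means in the larger classes from 0.24 in infarct Postn-negative to 1.78 in untraced Postn-positive cells. It passed the filter in 3 comparisons, with differences of 0.88, -0.06 and 0.23.

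Mgst1 is a transferase and peroxidase of the endoplasmic reticulum and outer mitochondrial membrane. In infarct Postn-negative cells its lowest, median and highest values were 0.00, 9.19 and 11.38, with a mean of 8.40 ± 2.69, and in resident Postn-negative cells 0.00, 3.43 and 11.31, with a mean of 4.57 ± 4.12. The difference of 3.83 was the largest of any member above 0 and lay within the SD. In the other infarct classes Mgst1 was at 7.81 ± 3.21 in Postn-traced, 6.95 ± 3.52 in infarct Tcf21-traced and 6.49 ± 4.12 in untraced Postn-positive cells. Resident Tcf21-traced cells were at 7.31 ± 3.88 and exceeded the resident Postn-negative cells by 2.74. Scar cells were at 4.94 ± 4.76, with a difference of -2.01 from infarct Tcf21-traced cells that was -0.72 without the cells of few genes and 0.12 with means on the linear scale. Mgst3, a related membrane enzyme, had means from 0.62 to 1.81 in the 7 larger classes and was highest among them in Postn-traced cells. It was detected in 9 of 27 of those and 2 of 24 infarct Postn-negative cells, with a difference of 1.09. Among cells with Mgst3 above 5 TPM that difference was -3.14, and rested on 9 Postn-traced and 2 Postn-negative cells.

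TPM is corrected for length, so the members can be added within a cell. The median sum of the 10 genes was 5996 TPM in resident Tcf21-traced, 6192 TPM in resident Postn-negative and 4906 TPM in infarct Postn-negative cells. It was 2407 TPM in infarct Tcf21-traced, 2784 TPM in untraced Postn-positive, 2245 TPM in Postn-traced and 1739 TPM in scar cells. Without Gstm1 the medians came closer, from 1975 TPM in infarct Tcf21-traced to 2536 TPM in resident Postn-negative cells, with scar cells apart at 1262 TPM. Gstm1 made up 54.5% of the mean sum in resident Tcf21-traced, 55% in resident Postn-negative and 55.7% in infarct Postn-negative cells, as the stacked bars show. Its share was 28.2% in infarct Tcf21-traced, 27.4% in untraced Postn-positive, 13.6% in Postn-traced and 28.6% in scar cells. Gstm1 was the most abundant member in 16 of 17 resident Tcf21-traced and 20 of 24 infarct Postn-negative cells. In Postn-traced cells it led in 4 of 27, while Gstp1 led in 9 and Mgst1 in 7.

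**Figure D3:**
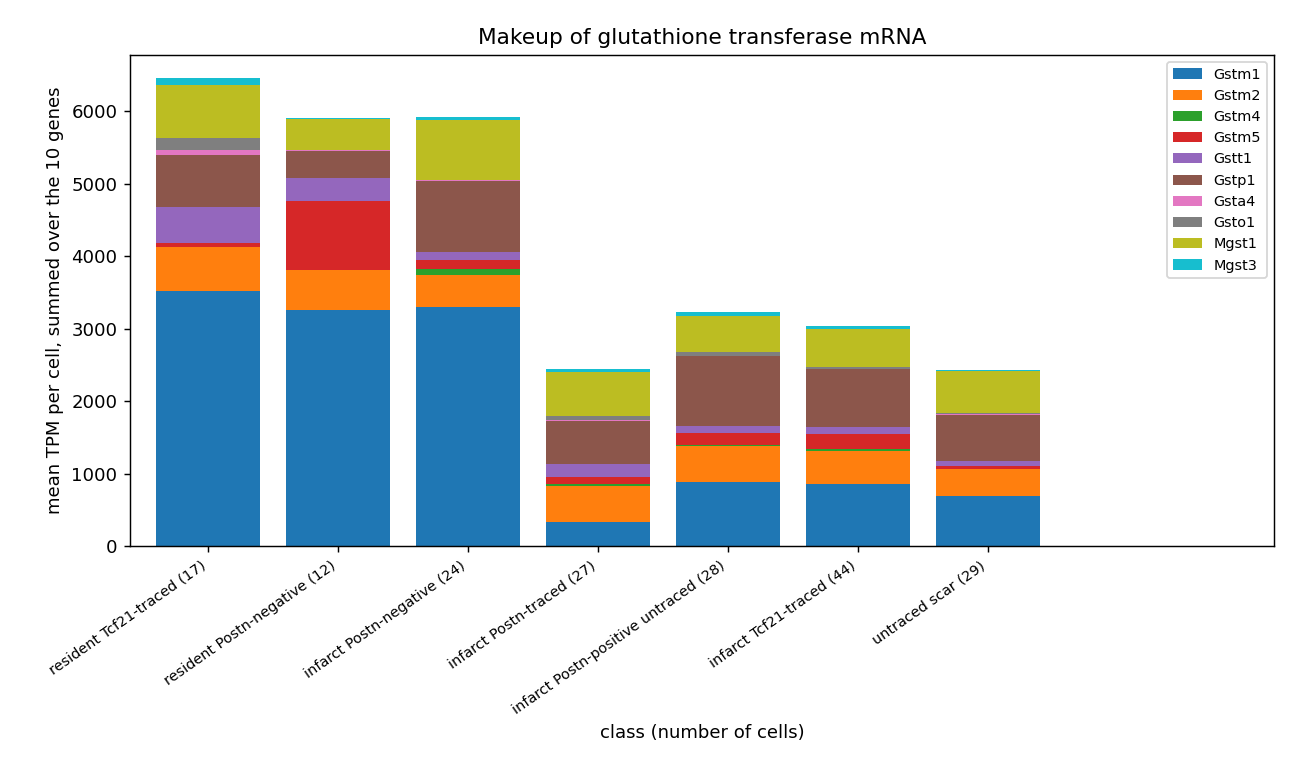
Mean TPM per cell summed over the 10 transferase genes in the 7 larger classes, stacked by gene. Gstm1 makes up more than 50% of the bar in the 3 classes with the highest sums.

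Postn encodes periostin and marks activated fibroblasts. Over cells of a capture, which share a date in their names and differ in the number of genes above 5 TPM, the Pearson correlation of Gstm1 with Postn was -0.71 in the 57 cells of Jul29 and -0.41 in the 63 cells of Nov4, where the Spearman value was -0.27. It was -0.12 in the 33 cells of Jul24 and -0.11 in the 32 cells of Nov11, which is weak. Jul29 is the capture on which the group was chosen, and its classes were defined by Postn. Within classes the correlation was -0.08 in infarct Postn-negative, -0.18 in Postn-traced and -0.51 in infarct Tcf21-traced cells, the last over 44 cells. It was 0.13 in the 19 untraced Postn-positive cells of Nov4, -0.15 in scar, 0.20 in resident Tcf21-traced and -0.05 in resident Postn-negative cells, so that a clear negative value was seen within a single class only. The plot of both genes shows the Postn-negative cells of Jul29 in a tight group at high Gstm1. Of the Tcf21-traced infarct cells, 39 of 44 had Postn above 5 TPM, and Gstm1 ran from 0.00 to above 11 among cells with much Postn. The 4 resident cells labelled as positive for Postn had Gstm1 at 9.08 or above. Gstm1 also correlated with the number of genes above 5 TPM, at -0.52 in Jul29, -0.31 in Nov4, 0.32 in Jul24 and 0.31 in Nov11, and the part of depth in these values was not tested.

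**Figure D4:**
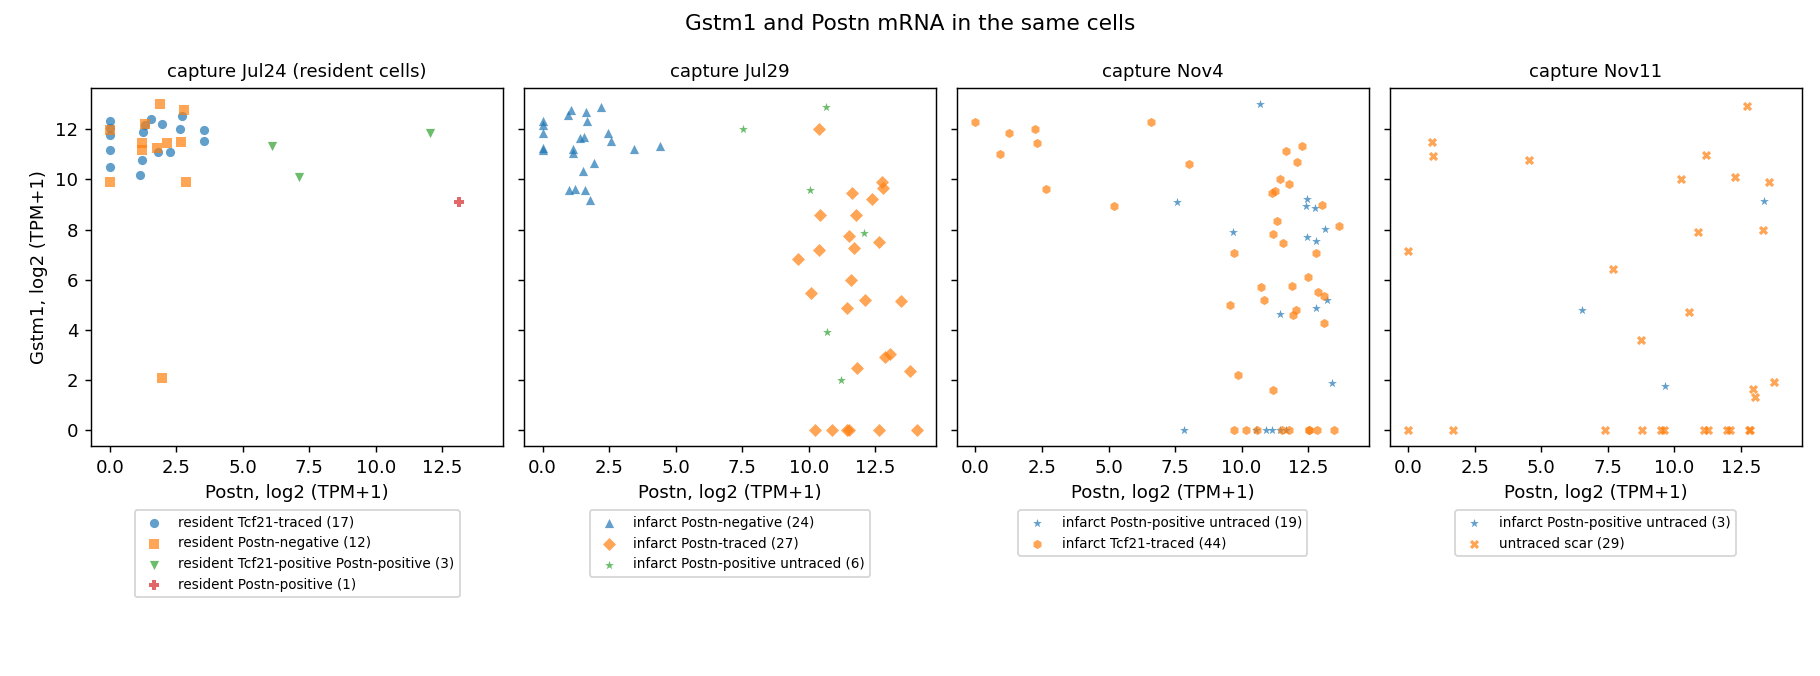
Gstm1 against Postn in log2 (TPM+1), 1 point per cell, in the 4 captures, with the classes marked by shape and colour. The correlation is -0.71 in Jul29, -0.41 in Nov4, -0.12 in Jul24 and -0.11 in Nov11.

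The members varied largely apart from each other. Over pairs of members the median correlation was -0.01 in Jul24, 0.12 in Jul29 and 0.11 in Nov4, and 0.25 in Nov11, the capture with the scar cells of few genes. Gstm1 and Gstm2 correlated at -0.07 in Nov4, -0.01 in Jul29, 0.35 in Jul24 and 0.45 in Nov11. Gstm2 and Gstp1 gave the highest pair value, 0.77 over the 32 cells of Nov11, and 0.49 in Nov4.

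The genes most like Gstm1 were taken over the 63 cells of Nov4, among 5740 genes. Dpep1, which encodes a dipeptidase that cleaves a breakdown product of glutathione conjugates, came first at 0.51, with 0.35 in Jul24, 0.49 in Jul29 and 0.59 in Nov11. Tgfbr3, the TGF-β co-receptor betaglycan, followed at 0.49, with 0.29, 0.34 and 0.59 in Jul24, Jul29 and Nov11. Gfpt2 was at 0.48 (0.30, 0.40 and 0.30 in the same order), the sodium channel gene Scn7a at 0.48 (0.43, 0.44 and 0.55) and Hmcn2 at 0.46 (0.15, 0.36 and 0.70). For other members the gene most alike in Nov4 was often not alike in the other captures. For Gstm2 it was Prdx2 at 0.52, with 0.13 in Jul24, 0.24 in Jul29 and 0.56 in Nov11. Nox4 was nearest to Gstm5 at 0.58, but -0.03, 0.0005 and 0.14 in the same captures. Selenbp1 was nearest to Gstt1 at 0.44, with -0.05, 0.20 and 0.50. These values show likeness that differs between captures, as do those that follow. Atp5j2 was nearest to Gstp1 at 0.67, with -0.03, 0.08 and 0.65. Setd8 was nearest to Gsto1 at 0.63, with -0.01, 0.25 and -0.02. Rpl6 was nearest to Mgst1 at 0.45, with 0.31, -0.06 and 0.55, and no value was computed for members above 5 TPM in fewer than 20% of these cells. Over the means of the 7 classes Gsn, the gelsolin gene, was most like Gstm1 at 0.99, followed by Crispld2 at 0.99, Abca8a at 0.98, Klf4 at 0.98 and Hsd11b1 at 0.97. These were the highest of 5038 genes over only 7 values, which include both classes on which the group was chosen. They are a description and support nothing. Gsn means were 13.93 in resident Tcf21-traced, 14.03 in infarct Postn-negative and 8.42 in Postn-traced cells.

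Of 20 other genes of the transferase and related membrane families, 17 were in the table, and 6 were above 5 TPM in at least 20% of the cells of a large class. These were Gsta3, Gstk1, Gstp2, Gstt2, Gstt3 and Gstz1. Gsta3, an alpha class enzyme, was like Gstm1 far lower in Postn-traced than in Postn-negative infarct cells, but not highest in resident Tcf21-traced cells. Its means were 6.00 ± 3.97 in resident Postn-negative and 4.60 ± 4.46 in infarct Postn-negative cells. It was at 2.60 ± 3.38 in resident Tcf21-traced, 1.58 ± 2.75 in infarct Tcf21-traced, 0.07 ± 0.38 in Postn-traced and 0.00 in scar cells. It was detected in 13 of 24 infarct Postn-negative cells and 0 of 27 Postn-traced cells, which allows a share of up to 12.8%. Its difference of -4.53 exceeded the SD of 4.46. Gsta3 passed the filter there through the Postn-negative cells alone, and this is the pair on which the group was chosen, so the difference is a description only. Gstp2 was detected in 3 of 12 resident Postn-negative, 3 of 17 resident Tcf21-traced and 3 of 24 infarct Postn-negative cells. The limit of shared sequence is the same as for Gstp1.

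Few of these other transferases passed the filter in a comparison. Here and in the lists that follow, the percentages after a median are the shares of all genes more than 1 log2 unit higher and lower. Between Postn-traced and Postn-negative cells 2 passed, with 1 higher, Gstz1 at 1.84, 1 lower, Gsta3, and a median of -1.34 against 0.75 for all genes (all genes 40.4% and 5.47%). Gstz1 encodes the zeta class enzyme of tyrosine breakdown. It was above 5 TPM in 9 of 27 Postn-traced and 12 of 44 infarct Tcf21-traced cells. The counts were 2 of 24 in infarct Postn-negative and 1 of 17 in resident Tcf21-traced cells. Where Gstz1 was called higher, it thus passed the filter through the class in which it was higher. Within Nov4, 3 passed in untraced Postn-positive against Tcf21-traced cells, with 0 higher, 2 lower and a median of -1.11 against 0.05 (all genes 10.6% and 8.2%), at -1.25 for Gstt3, -1.11 for Gsta3 and -0.69 for Gstz1. Resident Tcf21-traced against resident Postn-negative cells gave 2 passing, with Gsta3 lower at -3.40, Gstp2 at 0.43 and a median of -1.49 against 0.20 (all genes 24.3% and 15.6%). Infarct against resident Tcf21-traced cells gave 3 passing, with Gstz1 at 1.49 and Gstt3 at 1.02 higher, Gsta3 at -1.02 lower and a median of 1.02 against 0.86 (all genes 44.7% and 5.62%). Gsta3 alone passed between infarct and resident Postn-negative cells, at -1.39 (all genes 30.1% and 11.4%). Gstz1 alone passed between Postn-traced and resident Tcf21-traced cells, at 1.79 (all genes 47.6% and 5.3%). Gstt3, a theta class gene like Gstt1, was the higher of 2 genes in infarct Tcf21-traced against Postn-traced cells, at 1.23, with Gstz1 at -0.30 and a median of 0.46 against -0.10 (all genes 8.33% and 13.4%). In scar against infarct Tcf21-traced cells 3 passed with 1 lower, Gstt3 at -1.38, beside Gstz1 at -0.42 and Gstt2 at 0.15, and the median was -0.42 against -0.71 (all genes 2.1% and 36.7%). Gstt3 was detected in 14 of 44 infarct Tcf21-traced cells. The counts were 2 of 17 in resident Tcf21-traced, 4 of 27 in Postn-traced and 3 of 29 in scar cells. Against each of these classes Gstt3 thus passed the filter through the infarct Tcf21-traced cells, where it was higher.

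Genes that make and recycle glutathione were mostly below the filter, with 1 to 3 of 12 passing in each comparison. Slc7a11, the cystine transporter that feeds glutathione synthesis, was 5.10 ± 0.92 in resident Tcf21-traced and 3.14 ± 1.31 in infarct Tcf21-traced cells, a difference of -1.96 that exceeded the SD. Postn-traced cells differed from the same resident cells by -1.70, also beyond the SD of 1.46. Between Postn-traced and Postn-negative infarct cells it was -1.26, within the SD, and scar cells differed from infarct Tcf21-traced cells by -1.34. Gsr, the glutathione reductase, differed by 1.42 between Postn-traced and resident Tcf21-traced cells, where 1 of 2 genes was higher and 1 lower and the median was -0.14 against 0.94 for all genes (all genes 47.6% and 5.3%). Slc7a11 was the only gene to pass between infarct and resident Tcf21-traced cells (all genes 44.7% and 5.62%) and between Postn-traced and Postn-negative cells (all genes 40.4% and 5.47%).

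The other comparisons held few calls in this list. Within Nov4, 2 genes passed with none beyond 1 log2 unit, Gsr at 0.71 and Slc7a11 at 0.07, and the median was 0.39 against 0.05 (all genes 10.6% and 8.2%). Resident Tcf21-traced against resident Postn-negative cells also gave 2 passing and none called, with Ggt5, a gamma-glutamyl cleaving enzyme, at -0.85, Slc7a11 at -0.42 and a median of -0.63 against 0.20 (all genes 24.3% and 15.6%). Without the cell of myeloid markers 1 of the 2 was lower, Ggt5 at -1.02. Between infarct and resident Postn-negative cells Slc7a11 was at -0.86 and Ggt5 at -0.44, with a median of -0.65 against 0.39 (all genes 30.1% and 11.4%). Infarct Tcf21-traced against Postn-traced cells gave 3 passing and none called, with Gsr at -0.32, Slc7a11 at -0.26, the glutaredoxin gene Glrx at 0.24 and a median of -0.26 against -0.10 (all genes 8.33% and 13.4%). Of 3 that passed in scar cells only Slc7a11 was lower, though at -0.94 without the cells of few genes, with Glrx at -0.59, Gsr at 0.01 and a median of -0.59 against -0.71 (all genes 2.1% and 36.7%).

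The next list joins peroxidases, which remove hydrogen peroxide and lipid peroxides, with genes of the thioredoxin system that serves some of them, and many of its genes were higher in the 3 comparisons in which Gstm1 was lower beyond the SD. All genes were often higher there too. Between infarct and resident Tcf21-traced cells 10 of 14 were more than 1 log2 unit higher and 1 was lower, with a median of 1.79 against 0.86 for all genes (all genes 44.7% and 5.62%). Gpx7, an endoplasmic reticulum peroxidase, was at 6.67 ± 3.63 and 3.09 ± 3.98, a difference of 3.58, and Prdx6 differed by 2.97. Txnip, an inhibitor of thioredoxin, was the lower one, at -1.61, and Gpx3 was next at -0.37. Between Postn-traced and Postn-negative cells 9 of 14 were higher and 0 lower, with a median of 1.29 against 0.75 (all genes 40.4% and 5.47%). Prdx2 was at 7.99 ± 3.13 and 3.25 ± 3.88, a difference of 4.75, and Prdx4 was at 7.01 ± 2.96 and 2.49 ± 3.34, a difference of 4.53, and both exceeded the SD. The lowest were Prdx1 and Prdx6, both at -0.28. Between Postn-traced and resident Tcf21-traced cells 12 of 14 were higher and 0 lower, with a median of 1.72 against 0.94 (all genes 47.6% and 5.3%). Gpx7 and Prdx4 led there at 3.70 and 3.60, while Gpx3 was at -0.18 and Txnip at 0.07.

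In the other comparisons this list was divided. Infarct against resident Postn-negative cells gave 3 higher and 3 lower of 14, with a median of -0.01 against 0.39 for all genes (all genes 30.1% and 11.4%), and Prdx6 differed by 3.58, Gpx8 by 1.40, Gpx4 by -1.05 and Txn1 by -2.08. Without the cell of myeloid markers 1 was higher and 2 lower, with Gpx8 at 0.97 and Gpx4 at -1.74. Resident Tcf21-traced against resident Postn-negative cells gave 3 higher and 2 lower of 13, with Prdx2 at 2.38, Prdx5 at 2.34, Gpx1 at -1.44, Txn1 at -1.50 and a median of 0.02 against 0.20 (all genes 24.3% and 15.6%). Without the cell of myeloid markers 3 were higher and 3 lower, with a median of -0.24 against 0.13. Gpx4 went there from -0.47 to -1.15. Within Nov4, untraced Postn-positive against Tcf21-traced cells gave 2 higher and 1 lower of 14, with Prdx4 at 1.22, the thioredoxin reductase gene Txnrd1 at 1.05, Gpx3 at -0.64, Gpx1 at -1.19 and a median of 0.32 against 0.05 (all genes 10.6% and 8.2%). Infarct Tcf21-traced against Postn-traced cells gave 1 higher and 2 lower of 14, with Prdx6 at 1.08, Prdx1 at 0.90, Txnip at -1.68, Prdx5 at -2.17 and a median of -0.16 against -0.10 (all genes 8.33% and 13.4%). Scar against infarct Tcf21-traced cells gave 0 higher and 11 lower of 14, with a median of -1.59 against -0.71 (all genes 2.1% and 36.7%), and Gpx3 was lowest at -2.53, with Prdx2 at -2.30, Prdx5 at -0.23 and Txnip highest at 0.87. Most of that scar result was lost without the 6 scar cells of few genes, when 2 were higher and 3 lower of 14, with a median of -0.52 against -0.20, though Gpx3 was still at -2.31.

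Nfe2l2, the gene of Nrf2, was at 6.17 ± 3.43 in infarct Postn-negative and 5.09 ± 3.46 in Postn-traced cells, a difference of -1.08. It was at 4.57 ± 4.04 in resident Tcf21-traced and 4.06 ± 3.17 in infarct Tcf21-traced cells, a difference of -0.51. Of the 16 genes of its pathway, 9 passed between infarct and resident Tcf21-traced cells, with 3 higher, 1 lower and a median of -0.15 against 0.86 for all genes (all genes 44.7% and 5.62%). Akr1b8, an aldo-keto reductase, was at 3.71 ± 4.03 in the infarct class and listed at 0 in all 17 resident cells, so that it passed the filter through the infarct class alone. Ephx1, the microsomal epoxide hydrolase, differed by -1.73. Maff, a small Maf partner of Nrf2, was next highest at 1.11. Between Postn-traced and Postn-negative cells 9 passed, with 4 higher, 1 lower and a median of 0.85 against 0.75 (all genes 40.4% and 5.47%), and Akr1b8 differed by 2.17, Taldo1 by 1.36 and Hmox1 by -0.87. Between infarct and resident Postn-negative cells 8 passed, with 4 higher, 1 lower and a median of 0.86 against 0.39 (all genes 30.1% and 11.4%). Hmox1, which degrades haem, differed by 1.89 there, Nfe2l2 by 1.68, Akr1b8 by 0.14 and Sqstm1 by -1.21. Without the cell of myeloid markers 3 were higher and 0 lower, with Sqstm1 at -0.92. Within the resident capture 6 passed, with 2 higher, Ephx1 at 3.34 and Taldo1 at 2.46, beside Nfe2l2 at 0.08, Sqstm1 at -0.17 and a median of 0.57 against 0.20 (all genes 24.3% and 15.6%). Within Nov4, 12 passed with 0 higher and 1 lower, Akr1b8 at -1.32, beside Sqstm1 at -0.83, Mafk at 0.60, Pgd at 0.53 and a median of 0.02 against 0.05 (all genes 10.6% and 8.2%).

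Nfe2l2 and its pathway were again mixed in the comparisons that share classes. Postn-traced against resident Tcf21-traced cells gave 10 passing, 3 higher and 1 lower, with Akr1b8 at 3.55, Hmox1 at 1.24, Sqstm1 at 0.04, Ephx1 at -1.15 and a median of 0.56 against 0.94 (all genes 47.6% and 5.3%). Akr1b8 passed the filter there through the Postn-traced class alone. Infarct Tcf21-traced against Postn-traced cells gave 11 passing, 0 higher and 2 lower, with Maff at 0.84, Mafg at 0.80, Nfe2l2 at -1.03, Cbr1 at -1.04 and a median of -0.34 against -0.10 (all genes 8.33% and 13.4%). Scar against infarct Tcf21-traced cells gave 11 passing, 1 higher and 1 lower, with Nfe2l2 at 1.05, Hmox1 at 0.87, Maff at -0.69, Ephx1 at -1.65 and a median of -0.45 against -0.71 (all genes 2.1% and 36.7%). Without the scar cells of few genes 4 of 13 were higher, with Nfe2l2 at 1.94, Sqstm1 at 1.60 and Hmox1 at 1.56 among them, and 0 were lower, with Ephx1 at -0.96.

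Among other antioxidant and detoxifying genes, the metallothionein gene Mt2 stood out in the infarct. It was at 6.52 ± 4.39 in infarct and 1.49 ± 2.96 in resident Postn-negative cells, a difference of 5.03 that exceeded the SD. Postn-traced cells, at 7.03 ± 3.51, differed from resident Tcf21-traced cells, at 1.92 ± 3.42, by 5.12, also beyond the SD. Infarct Tcf21-traced cells differed from resident ones by 3.57, within the SD of 4.23. Aldh2, a mitochondrial aldehyde dehydrogenase, differed by -2.17 between Postn-traced and Postn-negative cells and by -1.61 between infarct and resident Tcf21-traced cells. Fmo2, a flavin monooxygenase, differed by -2.27 in the former pair and by 3.45 between infarct and resident Postn-negative cells. Sod3, the extracellular superoxide dismutase, differed by 2.39 between infarct Tcf21-traced and Postn-traced cells and by -2.58 between scar and infarct Tcf21-traced cells. Of the 20 genes of this list in the table, 14 passed between Postn-traced and Postn-negative cells, with 2 higher, 4 lower and a median of 0.05 against 0.75 for all genes (all genes 40.4% and 5.47%), and Aldh1a2 led at 1.29 and Cyp1b1 at 1.16. Between infarct and resident Tcf21-traced cells 13 passed, with 4 higher, 2 lower and a median of 0.51 against 0.86 (all genes 44.7% and 5.62%), and Mt1 was at 2.40 and Por at -1.52.

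Mt2 was the lowest of this list in 2 of the remaining comparisons, both between infarct classes. Within Nov4, 14 genes passed with 0 higher and 4 lower, with Mt2 at -1.50, Por at -1.23, Aldh1a2 at 0.41, Aldh1a1 at 0.36 and a median of -0.47 against 0.05 (all genes 10.6% and 8.2%). Resident Tcf21-traced against resident Postn-negative cells gave 12 passing, 2 higher and 3 lower, with Por, the electron donor of cytochromes P450, at 2.45, Sod3 at 1.13 (0.63 without the cell of myeloid markers), Sod2 at -1.99, Aldh1a1 at -2.26 and a median of -0.22 against 0.20 (all genes 24.3% and 15.6%). Without that cell 2 were still higher, since Cat, the catalase gene, went from 0.47 to 1.26. Infarct against resident Postn-negative cells gave 12 passing, 5 higher and 1 lower, with Aldh1a1 at -2.29, Sod2 at -0.45 and a median of 0.35 against 0.39 (all genes 30.1% and 11.4%). Postn-traced against resident Tcf21-traced cells gave 13 passing, 5 higher and 3 lower, with Mt1 at 3.52, Aldh2 at -1.91, Por at -2.03 and a median of 0.15 against 0.94 (all genes 47.6% and 5.3%). Infarct Tcf21-traced against Postn-traced cells gave 14 passing, 2 higher and 3 lower, with Sod2 at 1.05, Aldh1a2 at -1.14, Mt2 at -1.54 and a median of 0.17 against -0.10 (all genes 8.33% and 13.4%). Scar against infarct Tcf21-traced cells gave 15 passing, 0 higher and 4 lower, with Aldh2 at 0.48, Aldh1a2 at 0.30, Mt1 at -1.92 and a median of -0.23 against -0.71 (all genes 2.1% and 36.7%). Without the scar cells of few genes 1 was higher, Mt2 at 1.27, and 1 lower, Sod3 at -1.41, while Mt1 was at -0.11.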

How the data were processed

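Values were the log2 (TPM+1) that the authors deposited for 17171 genes in 185 cells. The submitters' processing notes name Bowtie 1.0.0, eXpress 1.5.1 and mm10. The table header names TPM and its title FPKM. The values of each cell, converted back, sum to between 999257 and 1000000, so they were read as TPM. No sample exists for 3 columns of the table, and these were left aside. Depth per cell is unknown, and genes above 5 TPM were counted in its place. No doublet caller was run. The cells had been imaged on the chip for eGFP, but the paper does not say whether doublets were removed.

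Class means, SDs between cells, differences, Pearson correlations and exact 95% Clopper-Pearson intervals were computed with SciPy 1.17.1, pandas 2.3.3 and NumPy 2.4.6 under Python 3.11.15, and figures drawn with Matplotlib 3.10.9. A gene was compared when above 5 TPM in at least 20% of the cells of both classes together, and counted as higher or lower beyond 1 log2 unit. The members and lists were chosen with earlier results of these data known. Named genes were the members, other transferases above 5 TPM in at least 20% of the cells of a class of 12 or more, the 2 highest and 2 lowest of each list per comparison, the 5 genes most like Gstm1 and the gene most like each other member. Nfe2l2, Gsn and Postn levels were given as well. The comparison of means was tested on simulated data, in which shifted genes were found but spread between cells alone also took unshifted genes beyond 1 log2 unit.

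Promoter windows came from RefSeq (GRCm38.p6) and were limited to the 250 bases before the start. Shared stretches were counted over GENCODE transcripts. Protein sequences were planned and were not analysed here. Alternatives were medians, TPM averaged before the log, pseudocounts of 0.1 and 5, rescaled or centred values, other minimums and filters, a step of 2 log2 units, cells of few genes left out, only cells with the member, untraced Postn-positive cells added to the Postn-negative class, and Spearman's correlation. Leaving out cells of fewer than 3 fibroblast genes, and repeating lists and gene counts without cells of few genes, were added after seeing the data.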

Additional observations from a re-analysis of the deposited data

How the results depend on the processing

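No paired analysis was possible because no mouse is named for any cell. Of 686 differences of members under alternatives, 9 changed sign from a value beyond 1 log2 unit, and the cause was not tested; 21 others moved by more than 1 SD. With medians Gstp1 was 0.0034 in Postn-traced minus Postn-negative cells. With only cells holding the member, Mgst3 was -3.14 in that comparison, Gstm5 was 0.49 in untraced Postn-positive minus Tcf21-traced cells, Gstm2 was -0.55 in resident Tcf21-traced minus Postn-negative cells, and in scar minus infarct Tcf21-traced cells Gstm1 was 0.45, Gstm2 was 0.0568 and Mgst1 was 0.54. In that last comparison Gstm2 was 0.11 without cells of few genes and Mgst1 was 0.12 with linear means. Gstm1 ranged from -6.90 to -3.31 in Postn-traced minus Postn-negative, from -5.91 to -2.04 in infarct minus resident Tcf21-traced, and from -7.18 to -3.40 in Postn-traced minus resident Tcf21-traced cells. In scar minus infarct Tcf21-traced cells it ranged from -5.17 to 0.45. In infarct minus resident Postn-negative cells, at 0.63 and so within 1 log2 unit, it ranged from -0.15 to 0.67 and changed sign. The correlation of Gstm1 with Postn in Nov11 was 0.0010 by Spearman and 0.19 after centring, and in Nov4 it was -0.27 by Spearman. Of 48 correlations under alternatives, 10 moved by more than 0.1 without changing sign, 5 by each method. Leaving out cells of fewer than 3 fibroblast genes, chosen after seeing the data, gave 0.13 for Gstm1, 0.92 for Gstm2 and 1.02 for Gstp1 in resident Tcf21-traced minus Postn-negative cells, against 0.92, 1.46 and 1.59, and kept all 6 gene counts within 1.5 times. Of 48 counts of lists repeated without either kind of cell, 11 moved more than 1.5 times, 8 of them in scar cells without those of few genes, where lower peroxidases went from 11 to 3 of 14. Of 210 shares of cells, 4 left their interval, and 7 of 7 summed levels stayed within 1 SD with means.

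Counts of genes depend on the step and filter by construction, and the cause of the other shifts was not tested. In Postn-traced minus Postn-negative cells 2051 higher and 278 lower genes became 638 and 100 at 2 log2 units, 789 and 121 above 5 TPM in at least 50% of cells, and 3078 and 156 after centring. In untraced Postn-positive minus Tcf21-traced cells 608 and 471 became 54 and 27, 246 and 234, and 1026 and 247. In resident Tcf21-traced minus Postn-negative cells 920 and 593 became 245 and 122, then 292 and 165, with 1030 lower without a filter. In infarct minus resident Tcf21-traced cells 2261 and 284 became 744 and 63, then 990 and 140, with 154 lower after centring. In infarct minus resident Postn-negative cells 1120 and 424 became 342 and 74, then 424 and 147, with 818 lower without a filter. In Postn-traced minus resident Tcf21-traced cells 2540 and 283 became 902 and 74, then 960 and 129, with 146 lower after centring. In infarct Tcf21-traced minus Postn-traced cells 473 and 761 became 55 and 97, then 223 and 312. In scar minus infarct Tcf21-traced cells 111 and 1939 became 4 and 423, then 21 and 1108, with 8 and 3925 after centring and 175 higher without a filter. Without cells of few genes, an alternative added after seeing the data, that comparison gave 486 and 909.

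Centring moved the median difference of all genes by 0.52, 0.26, 0.06, 0.45, 0.04, 0.50, -0.05 and -0.84 in this order of comparisons. Among untraced Postn-positive minus Tcf21-traced calls, the higher share went from 56.3% to 80.6%. Counts of cells limit the shares, and levels near 5 TPM cannot be told from missed transcripts.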
